A study of Homo sapiens with 6 samples.

Results

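The genes described here are the transcription factor ATF4 and the genes that the integrated stress response and ATF4 are known to act on: regulators, amino-acid synthesis enzymes, amino-acid transporters and tRNA-charging enzymes. A list of 41 symbols was matched to the gene names of the expression table, and a member was kept when it reached at least 1 RPKM (reads scaled to exon length and library depth) in at least 1 library. All 41 symbols matched and 37 were kept, out of 12925 genes kept and 27945 rows in the table. The 4 listed members below 1 RPKM everywhere were NUPR1, ALDH1L2, VLDLR and ADM2. They entered no test.

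RNA was sequenced from HaCaT cells, an immortalised line of human skin keratinocytes, which make the outer layer of the skin. Wild-type cells and cells labelled as knockout for p38α, a stress-activated kinase encoded by MAPK14, received PBS or IL-1α, an inflammatory cytokine released by damaged epithelium, for 4 h. All groups share the same line and culture medium, and the 6 libraries comprise 1 PBS library and 2 IL-1α libraries of each genotype. The labels describe neither the edit in MAPK14 nor the number of clones, and do not say whether the replicates were separate cultures, so p-values measure only the spread between these libraries.

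The depth recovered from the values was 16294089 to 34967698 reads per library, and the 3 knockout libraries were each deeper than the 3 wild-type ones. MAPK14 (hg19 chromosome 6, 35995454 to 36079013) stood at 14.4, 13.3 and 14.8 RPKM in the wild-type libraries and at 11.3, 11 and 7.41 RPKM in the knockout libraries, so its transcript was lower but present. Under IL-1α this difference was -0.61 ± 0.22 (log2, SE) with a limma adjusted p of 0.301, and a lesion that leaves the transcript in place would not be seen in these values. All 7 keratinocyte markers were present, summing to 2100 to 3257 RPKM per library. Fibroblast markers summed to 0.75 to 2.59 RPKM, melanocyte markers to 0.33 to 0.61 RPKM and leukocyte and endothelial markers to 0.47 to 1.41 RPKM, with PECAM1 and TYR listed at 0 in every library. A listed 0 need not mean an absent transcript, since VARS, a tRNA synthetase gene that every cell uses, is also listed at 0, there with 7 annotated places against 1 for PECAM1 and TYR. Within these lists some genes differed by genotype as the members lower in knockout did. LUM, a fibroblast marker, had 42, 26 and 24 reads in the wild-type libraries (PBS first) and 0, 0 and 1 in knockout, and DCN, another, had 34, 9 and 10 reads against 0 in each. KRT14, a basal keratin, had 1878, 1542 and 1445 RPKM in the wild-type libraries against 1171, 947 and 982 RPKM. Other markers did not follow. COL17A1, a keratinocyte marker, had 74.6, 107 and 107 RPKM in wild type against 131, 135 and 155 RPKM, and the fibroblast marker COL1A1 overlapped. Of the 7 keratinocyte markers, 4 were higher and 3 lower in knockout, with PBS and under IL-1α alike. The part of these markers in the genotype differences was not tested.

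In the integrated stress response, kinases that sense amino-acid shortage, unfolded proteins, double-stranded RNA or haem shortage phosphorylate the translation factor eIF2α. General translation then slows while the ATF4 mRNA is translated more, so ATF4 protein is governed largely by translation and its mRNA level does not report its activity. ATF4 pairs with C/EBP proteins on composite elements near its target genes, which supply the cell with amino acids, charged tRNAs and glutathione precursors and also feed back on the response.

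The composite element was searched in RefSeq promoters (GRCh38.p14, from 250 bases before to 50 after each start) as TGATGNAA on both strands. Of the 41 members 34 matched a RefSeq entry, with 54 promoters. At least 1 match lay in 11 of these 34 genes (32.4%), against 1217 of 27305 genes with a promoter in the table (4.46%). Those 27305 genes have 35116 promoters, so members have more promoters per gene. Counted by promoter, the shares were 20.4% and 3.62%. The members were listed as known targets, so a higher share follows from how the list was made and is no independent evidence. The 11 were CEBPG, CHAC1, ASNS, SLC1A4, SLC1A5, SLC3A2, SLC7A1, AARS, GARS, CARS and MARS (RefSeq lists the synthetases under newer symbols). The palindromic core TGACGTCA was found in 1 of the 34, PPP1R15A, against 2.25% of genes, and overlaps no composite match there. The 250 bases before the start of CHAC1 and ASNS are shown because both hold the element while their genotype differences under IL-1α were unlike. With PBS both were lower in knockout. Capitals mark the match, which spans positions -209 to -202 in CHAC1, on the opposite strand, and -68 to -61 in ASNS, on the same strand. The base just before the start is -1.
CHAC1, GRCh38.p14 chr15:40953221-40953470, plus strand: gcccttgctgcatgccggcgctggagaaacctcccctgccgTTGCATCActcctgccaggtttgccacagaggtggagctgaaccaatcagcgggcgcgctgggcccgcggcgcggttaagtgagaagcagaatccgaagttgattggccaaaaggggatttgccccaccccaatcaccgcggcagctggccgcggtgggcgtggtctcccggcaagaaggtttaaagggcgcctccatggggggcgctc
ASNS, GRCh38.p14 chr7:97872409-97872658, minus strand: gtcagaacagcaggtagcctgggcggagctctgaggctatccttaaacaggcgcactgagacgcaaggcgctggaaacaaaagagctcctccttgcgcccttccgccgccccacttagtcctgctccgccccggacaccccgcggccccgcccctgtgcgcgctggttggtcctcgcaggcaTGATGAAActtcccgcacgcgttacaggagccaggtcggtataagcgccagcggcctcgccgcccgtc
The next sequences show 30 bases around the match, in capitals, in a regulator, a transporter and a set of tRNA synthetases, and around the palindromic core in PPP1R15A.
CEBPG, GRCh38.p14 chr19:33374060-33374089, plus strand: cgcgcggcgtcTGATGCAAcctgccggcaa
SLC1A5, GRCh38.p14 chr19:46784893-46784922, minus strand: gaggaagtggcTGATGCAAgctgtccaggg
AARS, GRCh38.p14 chr16:70289675-70289704, minus strand: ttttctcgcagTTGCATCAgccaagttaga
CARS, GRCh38.p14 chr11:3057407-3057436, minus strand: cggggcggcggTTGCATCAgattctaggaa
MARS, GRCh38.p14 chr12:57488053-57488082, plus strand: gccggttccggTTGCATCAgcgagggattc
PPP1R15A, GRCh38.p14 chr19:48872352-48872381, plus strand: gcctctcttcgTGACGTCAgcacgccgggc
A match describes these letters only. No binding was measured, and the absence of a match says only that the letters are not in this window. Gene coordinates given beside the values are those of the table, on hg19, and are not interchangeable with the promoter coordinates.

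Values of a genotype are listed with the PBS library first and IL-1α replicates 1 and 2 after it. Expression was compared as log2(RPKM + 0.5), a scale that understates changes of low genes, with limma and Benjamini-Hochberg adjustment over the 12925 genes at 0.05. The PBS libraries of the genotypes, 1 each, were compared by fold alone. No member passed in any tested comparison, so the members are given as levels and differences. The members and lists were chosen with earlier results of these data known, so their shares against all genes are descriptions and not independent tests. In wild-type cells, 32 of 37 members were lower in both IL-1α libraries than in the PBS library (86.5%, against 54.3% of all genes). Between genotypes, 11 of 37 members (29.7%) were lower in all 3 knockout libraries than in all 3 wild-type libraries, against 8.86% of all genes, and 2 (5.41%) were higher in all 3, against 15.7%. These 11 were ATF4, DDIT3, DDIT4, SESN2, CHAC1, MTHFD2, CTH, SLC38A2, SLC6A9, SARS and STC2, and the 2 were ALDH18A1 and SLC7A11. With median-of-ratios rescaling, quantile normalization and the trend with transcript length removed, 13, 11 and 12 members were lower in all knockout libraries, against 13.0%, 11.1% and 13.0% of all genes. All of the 11 stayed among them except DDIT3, which left when the length trend was removed, and ALDH18A1 left the higher ones under each. Of the 11, only CHAC1 was among the genes with a composite element in the promoter window. In bulk RNA, fewer cells that express a gene and less RNA per cell cannot be told apart.

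**Figure D1:**
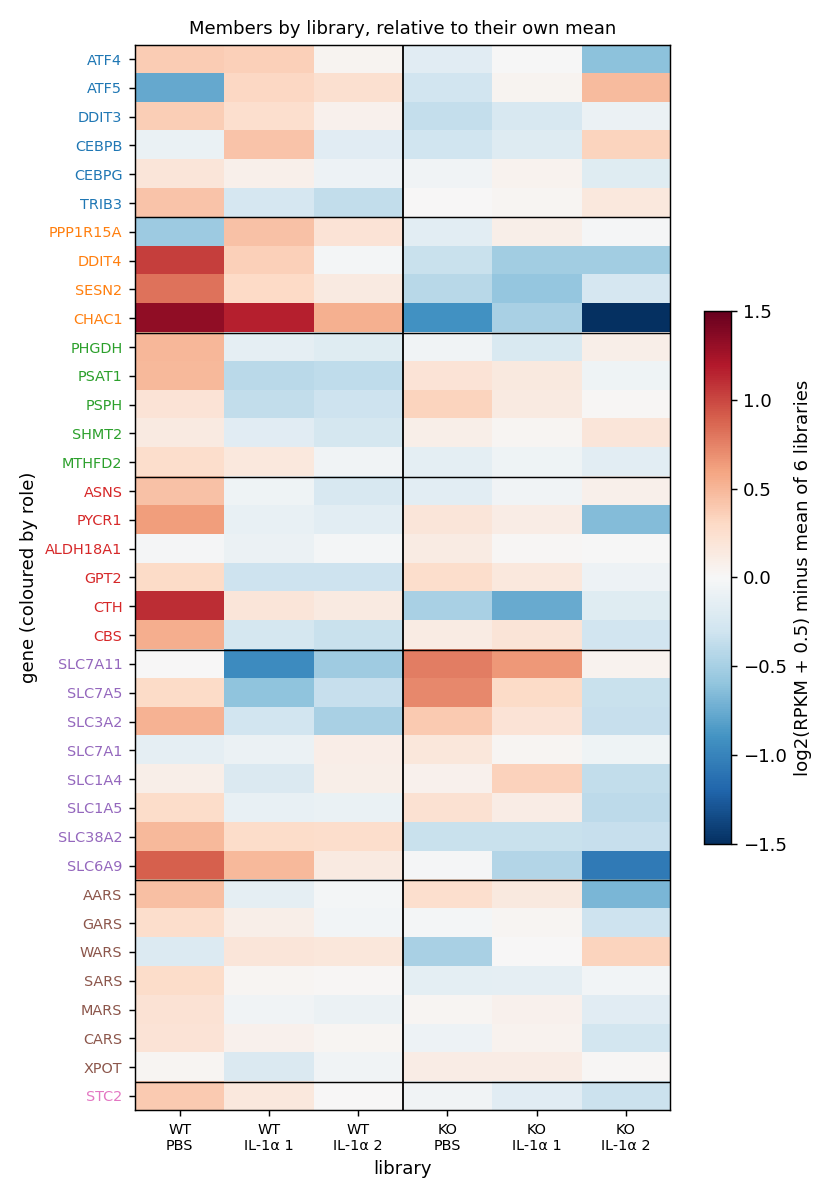
Level of each of the 37 kept members in the 6 libraries, as log2(RPKM + 0.5) minus the mean of that gene over the libraries; rows are genes ordered by role, columns are libraries, and colour gives the difference. CHAC1, DDIT4, SESN2 and CTH are lower in the 3 knockout libraries, and most wild-type members are highest in the PBS library.

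In wild-type cells, the members' median difference between IL-1α and PBS was -0.35 (log2), with 32 lower and 5 higher, where the median of all genes was -0.14 and 63.0% were lower. With limma, 0 members and 28 of all genes (0.217%) passed, 26 of them higher (0.201%) and 2 lower (0.0155%). At an unadjusted p below 0.05 there were 11 members lower and 2 higher, against 13.4% and 4.69% of all genes, and limma with voom weights passed 0 members. In knockout cells the median was -0.09 (all genes -0.02), with 25 lower and 12 higher (67.6% lower, against 52.8% of all genes). There, 0 members and 9 of all genes (0.0696%) passed, 1 member was higher and 0 lower at an unadjusted p below 0.05 (2.53% and 1.05% of all genes), and voom passed 0. Both knockout IL-1α libraries lay below the knockout PBS library for 15 of 37 members (40.5%), against 36.4% of all genes, which is near that background.

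The scaling mattered for the level of these differences. The all-gene median in wild type moved from -0.14 to 0.00 with median-of-ratios rescaling and to -0.01 with quantile normalization, and the members' median moved to -0.19 and -0.15. With the length trend removed they were 0.00 and -0.24. The members' median stayed below that of all genes in each, with 29, 29 and 27 of 37 members lower, as single values near 0 turned sign. Each IL-1α response also rests on a single PBS library of its genotype, whose own spread was not measured.

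Between genotypes under IL-1α, the members' median difference was -0.04, and that of all genes was 0.09. In knockout 22 members were lower and 15 higher (59.5% lower, against 39.0% of all genes). With limma, 0 members and 20 of all genes (0.155%) passed, 6 of them higher in knockout (0.0464%) and 14 lower (0.108%). At an unadjusted p below 0.05, 6 members were lower (DDIT4, SESN2, CHAC1, CTH, SLC38A2 and SLC6A9) and 4 higher (TRIB3, PSAT1, PSPH and SLC7A11), against 4.93% and 9.97% of all genes, and voom passed 0. Between the PBS libraries, 4 members were at least 2-fold lower in knockout (CHAC1, CTH, DDIT4 and SESN2) and 0 at least 2-fold higher, where 6.53% of all genes differed by that much in either direction and 4.11% were lower. The members nearest outside that threshold were SLC6A9 at -0.92 and SLC38A2 at -0.82, and the highest was SLC7A11 at 0.76. The members' median there was -0.28, against -0.01 for all genes, with 29 lower and 8 higher (78.4% lower, against 51.2% of all genes). With quantile normalization 23 were lower and 14 higher, and the median was -0.13, where that of all genes was 0.03.

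**Figure D2:**
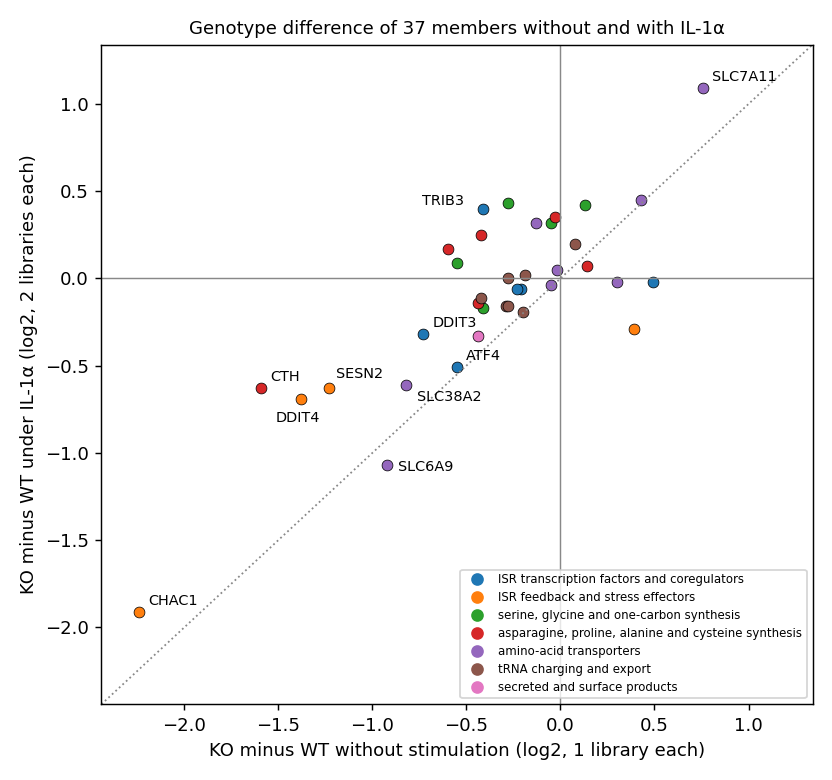
Knockout minus wild type (log2) for the 37 members without stimulation (x axis, 1 library each) and under IL-1α (y axis, mean of 2 libraries each); each point is a gene coloured by role and the dotted line marks equal values. CHAC1 lies at -2.24 and -1.91, SLC6A9 at -0.92 and -1.07, and SLC7A11 at 0.76 and 1.09, while TRIB3 is at -0.41 and 0.40.

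Among the transcription factors and coregulators, ATF4 was the most abundant per length (hg19 chromosome 22, 39916569 to 39918691). It stood at 231 RPKM in the wild-type PBS library, and the IL-1α libraries of that genotype held 228 and 183 RPKM. The knockout PBS library held 158 RPKM, with 177 and 116 RPKM after IL-1α. The highest knockout library was below the lowest wild-type one, by a narrow margin, and replicates of each genotype lay wide apart. The genotype difference was -0.55 between the PBS libraries and -0.51 ± 0.25 (log2, SE) under IL-1α (limma adjusted p = 0.39), and IL-1α differences were -0.18 ± 0.30 in wild type and -0.14 ± 0.30 in knockout. Over 14 settings the wild-type value ran from -0.34 to 0.19, so it has no settled direction. The genotype difference under IL-1α ran from -0.81 to -0.21. Between the PBS libraries the genotype difference ran from -0.55 to -0.17 over the 7 settings that apply, so the printed value is the largest.

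ATF5, a relative of ATF4 whose mRNA is under the same kind of translational control, was higher with IL-1α than with PBS in both genotypes. It stood at 10.2 RPKM in the wild-type PBS library against 22.1 and 21.2 RPKM under IL-1α, and at 14.5 RPKM in the knockout PBS library against 18.3 and 24.9 RPKM. Every IL-1α library was above both PBS libraries. The difference was 1.05 ± 0.24 in wild type (log2, SE; limma adjusted p = 0.144) and 0.54 ± 0.24 in knockout (adjusted p = 1). ATF5 shares 389 bases with NUP62 and 397 with IL4I1 on the other strand, and reads of those genes may enter its value, because no source used here says whether counting kept strands apart.

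TRIB3, a pseudokinase that restrains ATF4 and is itself a target of it, had its highest level in the wild-type PBS library. It stood at 50.8 RPKM in the wild-type PBS library and at 31.7 and 29.2 RPKM under IL-1α, where the knockout libraries had 38.1, 38.7 and 42.1 RPKM. The wild-type difference was -0.73 ± 0.19 (log2, SE; limma adjusted p = 0.157) and the knockout difference 0.08 ± 0.19. The genotype by IL-1α interaction, which tests the difference of these responses, was 0.82 ± 0.26 with an unadjusted p of 0.0205 and an adjusted p of 0.966.

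DDIT3, which encodes the stress factor CHOP, is given beside the rule for named genes because its libraries separated. It stood at 28.5, 26.3 and 23.0 RPKM in the wild-type libraries (PBS first) and at 17.0, 18.6 and 20.7 RPKM in the knockout libraries. The genotype difference was -0.73 between PBS libraries and -0.32 ± 0.16 under IL-1α (limma adjusted p = 0.408), and 68 bases shared with MARS on the other strand leave a small part of its reads uncertain. CEBPB and CEBPG, partners of ATF4 on composite elements, ranged from 16.6 to 28.0 RPKM and from 10.5 to 13.5 RPKM with overlapping genotypes. NUPR1, a stress-induced chromatin protein, had 9, 1 and 3 reads in the wild-type libraries and 14, 7 and 0 in the knockout libraries. The library with 0 reads allows up to 0.118 RPKM from 3 reads, counting error only, and the other libraries reached at most 0.631 RPKM. The median of the 6 factors kept was -0.18 in wild type with IL-1α, but 0.24 when the trend with transcript length was removed, so no direction holds for the group.

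**Figure D3:**
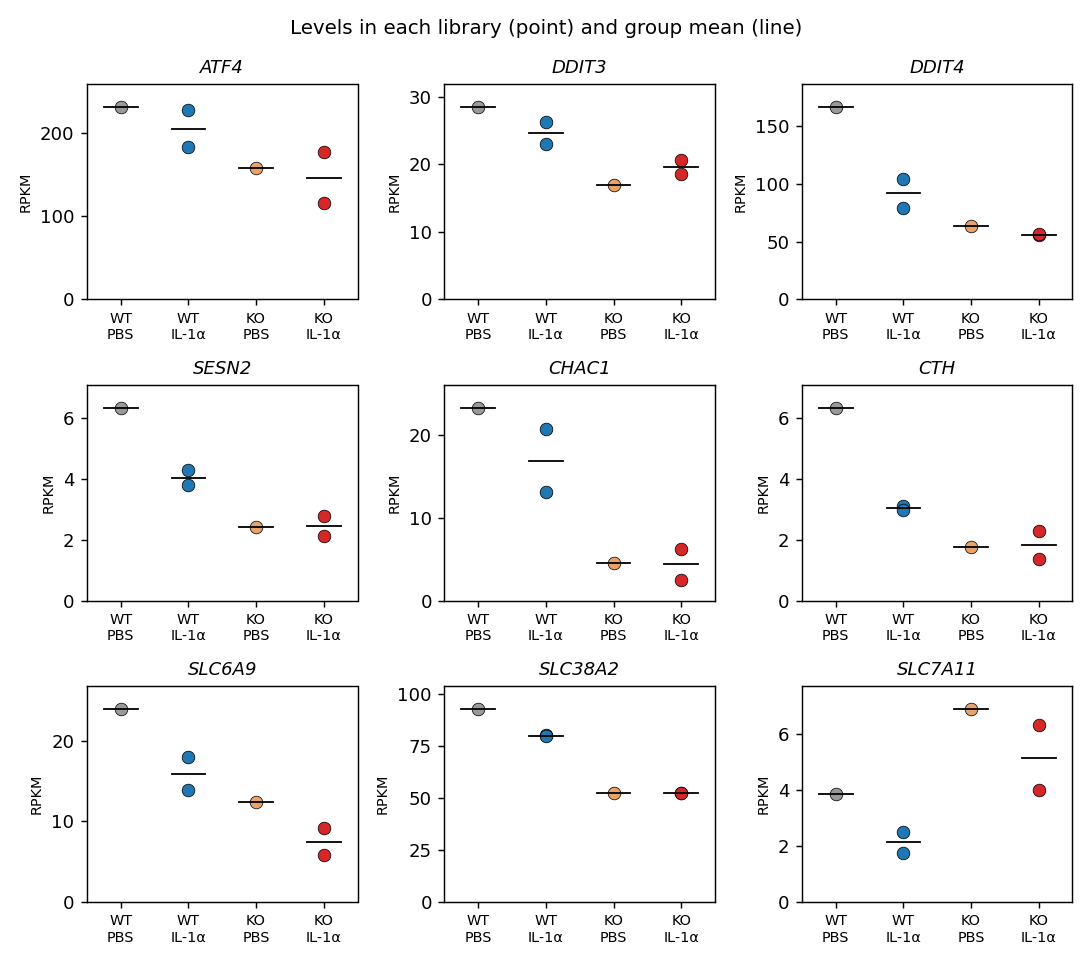
RPKM of named members in each of the 6 libraries, 1 panel per gene, with points for libraries and a line at the group mean; the y axes are linear, start at 0 and differ between panels. CHAC1, DDIT4, SLC38A2 and SLC6A9 have all knockout points below all wild-type points, and SLC7A11 has them above.

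The feedback and stress effectors held the lowest median genotype differences. CHAC1, an enzyme that degrades glutathione and a direct ATF4 target (hg19 chromosome 15, 41245669 to 41248717), stood at 23.3 RPKM in the wild-type PBS library and at 20.8 and 13.2 RPKM under IL-1α. In knockout it stood at 4.53 RPKM with PBS and at 6.24 and 2.54 RPKM under IL-1α. Every knockout library was far below every wild-type one. The PBS libraries held 594 reads in wild type and 241 in knockout, a depth-scaled ratio of 0.194 (exact 95% interval 0.166 to 0.226, counting error only), or -2.24 on the log2 scale. Under IL-1α the means were 17.0 ± 5.38 and 4.39 ± 2.62 RPKM (SD, n = 2 each) and the difference was -1.91 ± 0.41 (log2, SE; limma adjusted p = 0.179). The adjusted p was 0.048 when only genes reaching 5 RPKM were tested. Without knockout replicate 2, the lower of its pair, the difference was -1.34, and without knockout replicate 1 it was -2.49.

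DDIT4, an inhibitor of mTORC1 signalling (hg19 chromosome 10, 74033677 to 74035794), stood at 166 RPKM in the wild-type PBS library and at 104 and 79.2 RPKM under IL-1α. The knockout libraries held 63.8, 55.8 and 56.1 RPKM. The knockout values lay close together whatever the treatment, and every one was below every wild-type value. The PBS ratio was 0.384 (exact 95% interval 0.368 to 0.4, counting error only). As a log2 difference it was -1.38, and ran up to -1.15 over the settings. The IL-1α genotype difference was -0.69 ± 0.18 (log2, SE, limma adjusted p = 0.21). The wild-type response to IL-1α was -0.87 ± 0.22 (adjusted p = 0.157). In knockout the response was -0.19 ± 0.22, and the interaction was 0.68 with an adjusted p of 0.966.

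SESN2, a leucine sensor that also restrains mTORC1, was less abundant and had a like order of libraries. It had 6.33, 4.28 and 3.79 RPKM in the wild-type series of PBS and IL-1α libraries against 2.42, 2.11 and 2.78 RPKM in the knockout series. The PBS ratio was 0.382 (exact 95% interval 0.327 to 0.446, counting error only). The difference under IL-1α was -0.63 ± 0.21 (log2, SE, limma adjusted p = 0.271).

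PPP1R15A, which encodes GADD34, the phosphatase subunit that reverses eIF2α phosphorylation, differed from the other effectors. It stood at 28.5 RPKM in the wild-type PBS library against 56.9 and 48.2 RPKM under IL-1α, and at 37.3 RPKM in the knockout PBS library against 44.6 and 41.3 RPKM. IL-1α libraries were above the PBS library in both genotypes, by 0.87 ± 0.20 in wild type (log2, SE; limma adjusted p = 0.144) and 0.20 ± 0.20 in knockout. The interaction was -0.67 ± 0.28, one of 5 negative values among the 37 members, with an adjusted p of 0.966. As a group of 4, the effectors had a median genotype difference of -1.30 between PBS libraries and -0.66 under IL-1α, where all genes had -0.01 and 0.09, and rescaling kept the sign of both.

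**Figure D4:**
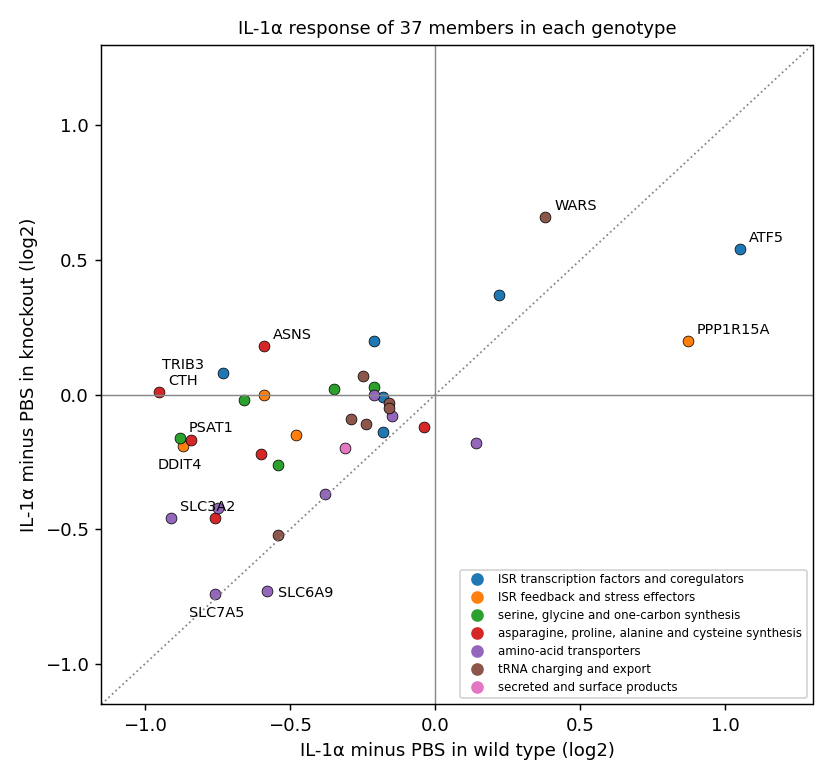
IL-1α minus PBS (log2) in wild type (x axis) and knockout (y axis) for the 37 members; each point is a gene coloured by role, each value is the mean of 2 IL-1α libraries minus 1 PBS library, and the dotted line marks equal responses. ATF5, PPP1R15A and WARS are above 0 on both axes, TRIB3, ASNS and CTH lie left of 0 near the horizontal axis, and SLC7A5, SLC3A2 and SLC6A9 are below 0 on both.

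The serine, glycine and one-carbon enzymes make serine from glycolytic intermediates and pass its carbon to folate. All 5 kept members were lower with IL-1α in wild type (63.0% of all genes), with a median of -0.54. The median in knockout was -0.02 (0.01 under some rescalings). MTHFD2 came up to 0.00 in wild type under other settings. PSAT1, the aminotransferase of serine synthesis (hg19 chromosome 9, 80911991 to 80945009), stood at 175 RPKM in the wild-type PBS library and at 94.6 and 96.0 RPKM under IL-1α. In knockout it stood at 144 RPKM with PBS and at 138 and 119.8 RPKM under IL-1α. Both wild-type IL-1α libraries were the lowest of the 6, and the replicates of that pair nearly coincided. The wild-type difference was -0.88 ± 0.20 (log2, SE; limma adjusted p = 0.144), the knockout difference was -0.16 ± 0.20, and the interaction was 0.71 ± 0.28 (unadjusted p = 0.0424, adjusted p = 0.966). SHMT2, the mitochondrial enzyme that splits serine, had 92.7, 75.3 and 70.3 RPKM in wild type and 89.7, 85.9 and 96.2 RPKM in knockout, a wild-type difference of -0.35 ± 0.19. PHGDH, the first enzyme of the pathway, spanned 64.4 to 107 RPKM, PSPH, its last enzyme, 8.47 to 14.2 RPKM, and MTHFD2, a mitochondrial folate enzyme, 41.4 to 55.9 RPKM. ALDH1L2, a further mitochondrial folate enzyme, reached at most 0.054 RPKM, with 0 reads in wild-type IL-1α replicate 1.

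Enzymes for asparagine, proline, alanine and cysteine had the lowest wild-type median with IL-1α among the role groups, -0.68 over 6 genes, against -0.14 in knockout. All 6 were lower in wild type (63.0% of all genes), though ALDH18A1, at -0.04, turned sign under rescaling. ASNS, asparagine synthetase (hg19 chromosome 7, 97481429 to 97501477), stood at 36.9 RPKM in the wild-type PBS library and at 25.9 and 22.8 RPKM under IL-1α, and at 24.2, 26.1 and 28.7 RPKM in knockout. The wild-type PBS library thus stood above the other 5. The wild-type difference was -0.59 ± 0.20 (log2, SE; limma adjusted p = 0.209), the knockout difference 0.18 ± 0.20, and the interaction 0.77 ± 0.28 (unadjusted p = 0.0306, adjusted p = 0.966). ASNS lies within the read-through gene CZ1P-ASNS on the same strand, with which it may share reads. Unlike CHAC1, ASNS was not lower in the knockout IL-1α libraries than in the wild-type ones, with a genotype difference of 0.17 ± 0.16 under IL-1α.

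CTH, which makes cysteine from cystathionine (hg19 chromosome 1, 70876901 to 70905534), gave 6.33, 3.11 and 2.98 RPKM in wild-type cells, and knockout cells gave 1.77, 1.37 and 2.30 RPKM. All knockout libraries were lower than all wild-type ones. The PBS ratio was 0.280 (215 reads in wild type and 126 in knockout, exact 95% interval 0.223 to 0.351, counting error only). The IL-1α genotype difference was -0.63 ± 0.26 (log2, SE; limma adjusted p = 0.331) and the wild-type response -0.95 ± 0.31 (adjusted p = 0.211). ALDH18A1, which starts proline synthesis, varied little, at 32.7, 31.2 and 32.5 RPKM in wild type and 36.2, 33.6 and 33.1 RPKM in knockout, and its genotype difference was small (0.07 ± 0.15 under IL-1α). PYCR1, the last step to proline, spanned 11.4 to 28.3 RPKM, GPT2, which makes alanine, 12.4 to 19.1 RPKM, and CBS, which makes cystathionine, 5.81 to 11.1 RPKM. CBS shares 22740 bases with its copy CBSL, so its value is uncertain.

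Amino-acid transporters included the highest levels per length of the list and, in SLC7A11, the largest excess in knockout among the members kept at 1 RPKM. SLC7A11, the cystine importer that feeds glutathione synthesis (hg19 chromosome 4, 139085248 to 139163503), measured 3.87, 1.77 and 2.5 RPKM across the wild-type libraries, where the knockout ones gave 6.91, 6.33 and 3.99 RPKM. All knockout values were above all wild-type values, though knockout replicate 2 came close to the wild-type PBS library. The PBS ratio was 1.78 (exact 95% interval 1.63 to 1.95, counting error only). As a log2 difference it was 0.76, and ran from 0.38 to 0.82 over the settings. The IL-1α difference was 1.09 ± 0.27 (log2, SE, limma adjusted p = 0.2), between 0.78 and 1.39 when a library was left out. The separation was lost when the trend with transcript length was removed. A partly overlapping antisense gene, SLC7A11-AS1, cannot be told apart from it without the strand setting.

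SLC6A9, a glycine transporter (hg19 chromosome 1, 44462155 to 44496795), had 23.9, 17.9 and 13.9 RPKM in the wild-type series of PBS and IL-1α libraries against 12.4, 9.13 and 5.78 RPKM in the knockout series. Within each genotype IL-1α libraries were below the PBS library, and every knockout library was below every wild-type one. The genotype difference under IL-1α was -1.07 ± 0.25 (log2, SE; limma adjusted p = 0.189), from -1.38 to -0.76 with a library left out, and -0.92 between PBS libraries. SLC38A2, a carrier of small neutral amino acids that rises on amino-acid starvation (hg19 chromosome 12, 46751971 to 46766645), gave 92.7, 80.4 and 79.6 RPKM in wild-type cells, and knockout cells gave 52.3, 52.3 and 52.2 RPKM. Its replicates nearly coincided in both genotypes, at 80.0 ± 0.562 and 52.3 ± 0.0884 RPKM (SD, n = 2 each). The difference under IL-1α was -0.61 ± 0.15 (log2, SE; limma adjusted p = 0.189), with limma's SE drawn towards that of genes of like level.

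SLC7A5 and SLC3A2 encode the subunits of the large neutral amino-acid exchanger that imports leucine. SLC7A5 stood at 367 RPKM in the wild-type PBS library and at 198 and 236 RPKM under IL-1α, and at 493 RPKM in the knockout PBS library and at 366 and 237 RPKM under IL-1α. The difference was -0.76 ± 0.31 in wild type (log2, SE; limma adjusted p = 0.267) and -0.74 ± 0.31 in knockout (adjusted p = 1). The knockout value was -0.43 without knockout replicate 2 and -1.05 without replicate 1. SLC3A2 measured 348, 199 and 173 RPKM across the wild-type libraries, where the knockout ones gave 318, 280.0 and 192 RPKM, with differences of -0.91 ± 0.28 (adjusted p = 0.195) and -0.46 ± 0.28 (adjusted p = 1). In both genotypes both subunits had their highest level with PBS. SLC1A5, a glutamine carrier, spanned 67.8 to 108 RPKM, SLC7A1, an arginine carrier, 57.8 to 71.3 RPKM, and SLC1A4, a serine and alanine carrier, 7.55 to 12.8 RPKM.

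The transporters also lay apart within the knockout IL-1α pair. All 8 were lower in replicate 2 than in replicate 1, with a median of -0.58 (log2), where 3 of 8 were lower in the wild-type pair with a median of 0.10. Their median IL-1α difference in knockout was -0.39, but -0.13 without knockout replicate 2 and -0.67 without replicate 1. Over all 37 members the median absolute difference was 0.32 within the knockout pair and 0.14 within the wild-type pair (all genes 0.25 and 0.19). CHAC1 was the widest apart in both pairs, at -1.15 and -0.64 (replicate 2 minus replicate 1), and AARS at -0.84, PYCR1 at -0.76 and SLC1A4 at -0.72 followed in knockout, while CTH at 0.58 and CEBPB at 0.53 went the other way. What set these libraries apart was not tested.

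Among the tRNA-charging enzymes, WARS, the tryptophanyl-tRNA synthetase, which is also known as an interferon-inducible gene (hg19 chromosome 14, 100800125 to 100842680), had 102, 134 and 132 RPKM in the wild-type series of PBS and IL-1α libraries against 84.0, 118 and 149 RPKM in the knockout series. It was higher in every IL-1α library than in either PBS library, by 0.38 ± 0.22 in wild type and 0.66 ± 0.22 in knockout (log2, SE; limma adjusted p = 0.399 and 1). GARS, for glycine, had 154, 137 and 124 RPKM in wild type and 126, 131 and 104 RPKM in knockout. Of the 7 genes of this group WARS alone had a positive wild-type IL-1α value (CARS, at -0.16, reached 0.01 under other settings), and the group's medians were -0.24 in wild type and -0.05 in knockout. AARS, for alanine, spanned 36 to 80.0 RPKM, SARS, for serine, 58.4 to 78.5 RPKM, MARS, for methionine, 51.0 to 67.2 RPKM, CARS, for cysteine, 33.1 to 46.4 RPKM and XPOT, which exports tRNAs from the nucleus, 24.4 to 30.7 RPKM. SARS was below in all knockout libraries, where its highest value was 63.1 RPKM against a lowest wild-type value of 65.9 RPKM.

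Of the secreted and surface products only STC2, a secreted glycoprotein, was kept. It gave 14.8, 12.6 and 11.2 RPKM in wild-type cells, and knockout cells gave 10.7, 9.84 and 8.82 RPKM, with a genotype difference of -0.33 ± 0.17 under IL-1α (log2, SE; limma adjusted p = 0.402). VLDLR, a lipoprotein receptor, had 8, 6 and 6 reads in wild type and 46, 36 and 18 reads in knockout, or at most 0.318 RPKM. The knockout libraries were the deeper ones, and per depth they still stood at 0.254, 0.318 and 0.117 RPKM against 0.093, 0.071 and 0.063 RPKM. ADM2, a peptide hormone gene, reached at most 0.805 RPKM.

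**Figure D5:**
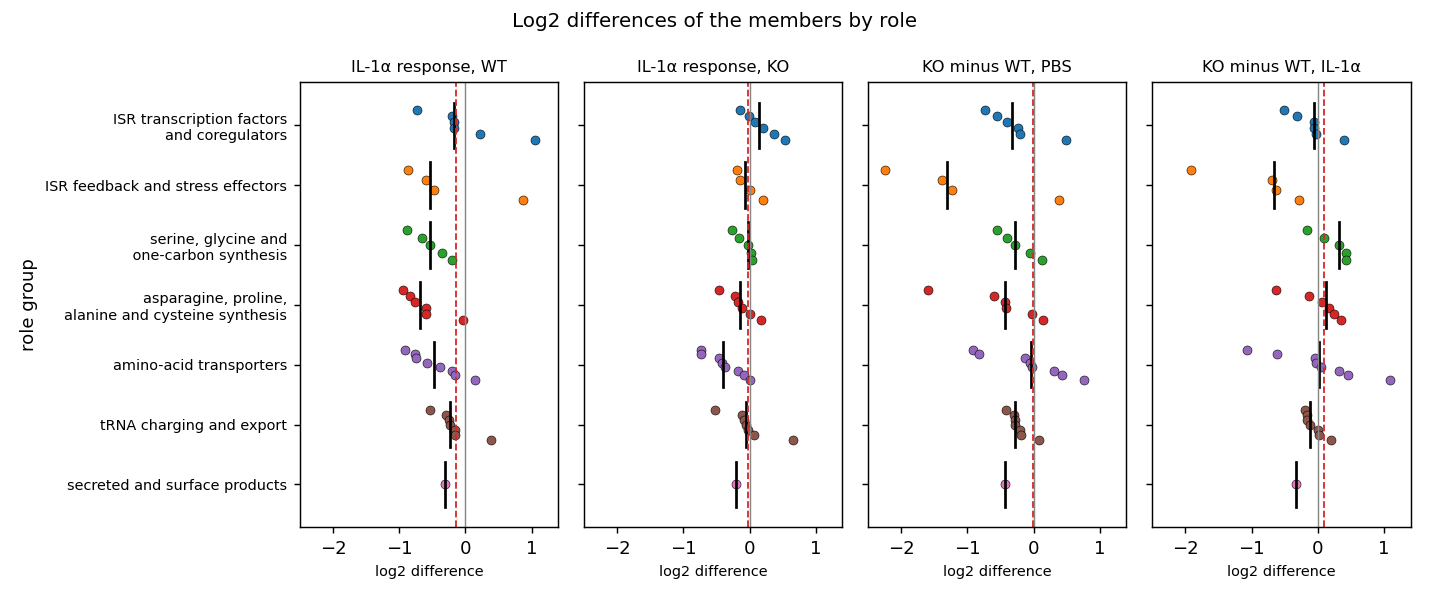
Log2 differences of the kept members by role group in each comparison; points are genes, black ticks are group medians, the red dashed line is the median of all 12925 genes and the grey line is 0. The effectors have the lowest medians between genotypes (-1.30 with PBS and -0.66 under IL-1α), and the enzymes of asparagine, proline, alanine and cysteine synthesis have the lowest in the wild-type IL-1α response (-0.68).

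The interaction, which asks whether the IL-1α difference depended on genotype, gave 0 of 12925 genes passing with limma (0%). For the members, 32 of 37 values were positive, a less negative or more positive IL-1α difference in knockout, with a median of 0.24, against 60.4% positive and a median of 0.10 among all genes. At an unadjusted p below 0.05 there were 3 members higher (TRIB3, PSAT1 and ASNS) and 0 lower, against 3.76% and 0.627% of all genes, and voom passed 0. The median was 0.08 without knockout replicate 1 and 0.33 without knockout replicate 2, and 0.06 with quantile normalization. Positive values numbered 24, 23 and 25 of 37 with median-of-ratios rescaling, quantile normalization and the length trend removed, where the median of all genes was -0.02, -0.02 and -0.01. For 5 of 37 members (13.5%) both IL-1α libraries lay on opposite sides of the PBS library in the genotypes, against 13.2% of all genes, which is near that background.

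Genes around the response were read from further lists, none of which had a member that passed in a tested comparison. The eIF2α kinases, eIF2 and eIF2B (13 of 13 kept) had medians of 0.00 with IL-1α in wild type and -0.01 between genotypes under IL-1α. EIF2AK4, which encodes GCN2, the amino-acid sensor, measured 16.1, 12.8 and 16.5 RPKM across the wild-type libraries, where the knockout ones gave 25.7, 24.0 and 27.3 RPKM, higher in all knockout libraries (0.79 ± 0.19 under IL-1α, log2, SE; limma adjusted p = 0.189). EIF2S3, the γ subunit of eIF2, differed by 0.33 ± 0.18 between genotypes under IL-1α. EIF2AK2, which encodes PKR, the sensor of double-stranded RNA, was chosen after its values were seen: it had 10.1, 20.3 and 24.2 RPKM in the wild-type series of PBS and IL-1α libraries against 18.4, 22.8 and 24.7 RPKM in the knockout series (wild-type response 1.10 ± 0.21, adjusted p = 0.113).

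Other cytosolic synthetases (13 of 14 kept, with VARS listed at 0) had a median of -0.11 with IL-1α in wild type and 0.10 between genotypes under IL-1α. YARS and FARSA, for tyrosine and phenylalanine, had the smallest unadjusted p between genotypes, at -0.36 ± 0.15 and -0.31 ± 0.16. One-carbon and folate enzymes outside the members (7 of 9 kept) were higher in knockout under IL-1α for 6 of 7 (61.0% of all genes), with a median of 0.38. SHMT1, the cytosolic counterpart of SHMT2, gave 25.3, 16.8 and 17.6 RPKM in wild-type cells, and knockout cells gave 32.7, 27.7 and 28.6 RPKM (0.70 ± 0.15 under IL-1α, limma adjusted p = 0.179).

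Other reported targets of ATF4 or the integrated stress response (17 of 19 kept, with FGF21 and SLC7A3 listed at 0) had a median of 0.17 between genotypes under IL-1α. In knockout 10 were higher and 7 lower (58.8% higher, against 61.0% of all genes), which is near that background. HERPUD1, a factor of endoplasmic reticulum protein degradation, measured 39.3, 58.7 and 51.3 RPKM across the wild-type libraries, where the knockout ones gave 20.9, 25 and 27.9 RPKM, a difference of -1.04 ± 0.16 under IL-1α (limma adjusted p = 0.0988). VEGFA, the vascular growth factor gene, had 32.1, 62.6 and 50.8 RPKM in the wild-type series of PBS and IL-1α libraries against 17.8, 26.9 and 31.8 RPKM in the knockout series, a difference of -0.94 ± 0.18 (adjusted p = 0.156). Both were higher with IL-1α than with PBS in each genotype, unlike most members. The list did not share the members' wild-type direction. With IL-1α, 9 of its 17 genes were lower and 8 higher in wild type (52.9% lower, against 63.0% of all genes). In knockout 10 were lower and 7 higher (58.8% lower, against 52.8% of all genes).

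The endoplasmic reticulum genes that answer to ATF6 and IRE1-XBP1, the other arms of the unfolded protein response, were mostly higher with IL-1α. Of the members, 86.5% were lower in wild type (63.0% of all genes) and 67.6% in knockout (52.8% of all genes). Of the 18 endoplasmic reticulum genes, 16 were higher in wild type with a median of 0.33 (37% of all genes higher). In knockout 17 of 18 were higher with a median of 0.15 (47.2% of all genes). Between genotypes under IL-1α, 16 of 18 were lower in knockout (39.0% of all genes), with a median of -0.34, which was -0.17 without knockout replicate 1. At an unadjusted p below 0.05, 6 of 18 were lower, against 4.93% of all genes. Between the PBS libraries 11 of 18 were lower and 7 higher in knockout (61.1% lower, against 51.2% of all genes), with a median of -0.10. HSPA5, the chaperone BiP, gave 306, 458 and 416 RPKM in wild-type cells, and knockout cells gave 223, 241 and 271 RPKM (-0.77 ± 0.17 under IL-1α, limma adjusted p = 0.185). XBP1, the transcription factor of the IRE1 arm, measured 72.3, 91.1 and 78.3 RPKM across the wild-type libraries, where the knockout ones gave 42.4, 54.6 and 44.2 RPKM (-0.78 ± 0.18, adjusted p = 0.189). Both were lower in every knockout library than in every wild-type library.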

How the data were processed

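The deposited table holds RPKM values (HOMER, exon counting, hg19, per the file headers and the submitters' processing notes, which also name bcl2fastq 2.20.0.422 and STAR). The strand setting and the HOMER and STAR versions are not given in the sources used here. RPKM values were used as the authors deposited them. Depth was recovered from RPKM values of 0.02 to 1 as whole reads within 0.1 read (97.9% to 99.8% of values whole) and served for read counts, exact 95% ratio intervals, 3-read floors and voom.

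Genes with at least 1 RPKM in 1 library (12925) were fitted as log2(RPKM + 0.5) with limma 3.58.1 (R 4.3.3), 1 coefficient per group, a variance trend and Benjamini-Hochberg adjustment at 0.05. The 2 residual degrees of freedom came from the IL-1α pairs. The fit was also run on simulated data with the same spread setting for all genes, which these libraries need not have. No result here rests on it. PBS genotypes were compared by fold (at least 2-fold, at least 1 RPKM in the higher library).

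The members and lists were chosen with earlier results of these data known. Values in all libraries are given for members passing a test, at least 2-fold apart with PBS, among the 5 smallest p of a comparison, or among the 2 most abundant of a role. Of other lists the 2 smallest p between genotypes under IL-1α are named. One gene that this rule names is not reported here. Alternatives covered pseudocounts, filters, scalings, voom, the variance trend, a replicate block and leaving out each IL-1α library.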

Additional observations from a re-analysis of the deposited data

Results flagged for a closer look

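For 5 members both IL-1α libraries lay on one side of the PBS library in wild type and on the other side in knockout, a share of 13.5% where all genes had 13.2%. Each rests on a single PBS library per genotype, and the interaction was tested with limma. TRIB3 had an interaction of 0.82 (adjusted p = 0.966). ASNS had 0.77 (adjusted p = 0.966). DDIT3 had 0.41 (adjusted p = 0.966). SARS had 0.31 (adjusted p = 0.966). SLC7A1 had -0.32 (adjusted p = 0.966), with the opposite sign to the others. Over the settings the DDIT3 interaction ran from -0.04 to 0.50 and its wild-type response from -0.30 to 0.30. The wild-type responses of SARS and SLC7A1 kept their sign in 13 of 14 settings, and those of TRIB3 and ASNS in all 14. Groups of 1 or 2 libraries are too small for a check of single libraries that stand apart.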

How the results depend on the processing

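The 308 values checked under the alternatives belong to members with the 5 smallest p of a comparison or at least 2-fold apart with PBS. All of these kept their direction, but they were picked for their differences. Members named for abundance did not all do so. The wild-type response kept its sign in 12 of 14 settings for ATF4 and 11 of 14 for ALDH18A1, and the ATF4 interaction in 9 of 14. No member passed to begin with and 0 genes of the whole table pass with a library of the compared groups left out, so the side of the threshold says little about stability. It changed for 2 values, both of CHAC1 between genotypes under IL-1α, which passed with a filter at 5 RPKM (adjusted p = 0.048) and with a replicate block (adjusted p = 0.0231), giving 1 member called in each. Deviations of same-numbered libraries correlated at 0.009 across 12925 genes, so no deviation shared by replicate number was seen. With 1 pair per genotype this cannot show whether the samples were handled in pairs. The members' wild-type median was -0.19 with median-of-ratios rescaling and -0.15 with quantile normalization, and their interaction median was 0.06 with the latter.

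Counts of all genes called depended on the setting. The wild-type response (28 genes) gave 49 with no filter, 162 at 5 RPKM, 61 with median-of-ratios rescaling, 96 with the length trend removed, 81 with the replicate block, 11 with voom and 0 to 70 with a library left out. The knockout response (9 genes) gave 5 with a pseudocount of 1, 65 with no filter, 49 at 5 RPKM, 21 with the length trend removed, 18 with the block, 4 without a variance trend, 2 with voom and 0 with any library left out. Knockout against wild type under IL-1α (20 genes) gave 7 with a pseudocount of 0.1, 0 with no filter, 88 at 5 RPKM, 13 with quantile normalization, 40 with the length trend removed, 58 with the block, 0 without a variance trend, 55 with voom and 0 with any library left out. The interaction (0 genes) gave 87 with no filter, and the PBS comparison (844 genes) gave 508 at 5 RPKM. The cause was not tested. With 2 residual degrees of freedom and 1 PBS library per genotype, a missed threshold does not show that values did not differ.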
